A study of Mus musculus with 10 samples.

Results

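The glutathione S-transferases, UDP-glucuronosyltransferases and cytosolic sulfotransferases of the mouse kidney were followed through ischaemia and reperfusion injury. Members were taken by gene symbol alone: Gsta, Gstm, Gsto, Gstp and Gstt genes, Ugt1, Ugt2 and Ugt3 genes, and Sult genes, without pseudogene names. This gave 62 of the 33714 genes in the bulk table, 20 of them Gst, 21 Ugt and 21 Sult. Of these, 44 passed the low-count filter (18 Gst, 16 Ugt, 10 Sult), and 8 had no count in any kidney library (Sult2a1, Sult2a2, Sult2a5, Sult2a6, Sult2a7, Sult3a1, Sult3a2 and Ugt2b36). The rest, Gstm3, Gstt4, Sult1c1, Sult2a4, Sult6b1, Sult6b2, Ugt2a1, Ugt2a2, Ugt2b1 and Ugt2b35, had 3 to 125 counts summed over the 29 kidney libraries and were not tested. The single-cell tables held rows for 34 members in the injured library and 32 in the uninjured library.

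Bulk RNA was measured in 8 groups of kidney from 8 week old mice, with 4 numbered columns per group taken as libraries, and single cells in 1 injured and 1 uninjured C57/BL6 kidney. Injury was a clamp of the artery to 1 kidney for 15 minutes, and both the injured and the contralateral kidney were taken 2 weeks later. Both kidneys were sampled in 3 arms: C57/BL6 mice given tamoxifen (the wild-type arm), Pax8creERT2;Ihhfl/fl mice given no tamoxifen (the floxed vehicle arm), and Pax8creERT2;Ihhfl/fl mice given tamoxifen (the arm labelled Ihh-deleted). Pax8 drives the tamoxifen-dependent Cre in tubular epithelium, and the first 2 arms are called intact below. The other bulk groups were uninjured C57/BL6 kidneys and the kidney left after removal of the opposite one in C57/BL6 mice. Nothing in the labels ties the numbered columns to separate animals, and p-values therefore reflect only the spread between these libraries.

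Levels are CPM, counts relative to the depth of a library, with depth corrected by TMM factors, the between-library factors of edgeR. M stands for mega in library totals. Ihh, the targeted ligand, stood at 4.25, 6.0, 5.33 and 4.31 CPM in the injured kidneys labelled Ihh-deleted, at 7.52, 4.76, 7.97 and 9.78 in injured wild-type kidneys and at 7.99, 8.95, 13.67 and 5.21 in injured floxed vehicle kidneys. In the contralateral kidneys labelled Ihh-deleted it stood at 4.8, 9.39, 3.88 and 18.28 CPM, so library 4 went against its label, as it lay above all 8 intact contralateral libraries (8.73 to 16.51 CPM). Library 2 of that group, at 9.39 CPM, lay within this intact range. In injured kidneys the labelled libraries, at up to 6.0 CPM, overlapped intact ones at 4.76 and 5.21. Of the 32 bulk columns, 3 had a heart profile (uninjured 1 and 4, nephrectomy 3) and were left out, which leaves 2 uninjured and 3 nephrectomy libraries. The kept nephrectomy library 1 still held the heart muscle gene Myh6 at 313.54 CPM without TMM factors, against at most 3.56 in the other kept libraries. Contralateral floxed vehicle library 2 stood apart with 37.98 M counts and Lrp2, the megalin gene of the proximal tubule, at 3296 CPM against 9498 to 12036 in the other contralateral libraries. Uninjured library 2 held 0.593 M counts. TMM factors were 0.740 to 0.948 in contralateral and 0.954 to 1.321 in injured libraries, and without them the median log2 fold change of all genes on injury moved from 0.05 to 0.42, so the counts of members called are also given by library totals where they change.

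These 3 families carry out conjugation, the step of detoxification in which a polar group is attached to a drug, pollutant, hormone or lipid peroxidation product so that it can be exported. Glutathione transferases use glutathione, UDP-glucuronosyltransferases use UDP-sugars and sit in the endoplasmic reticulum, and cytosolic sulfotransferases use the sulfate donor PAPS. In the kidney the proximal tubule takes up organic anions from blood, conjugates many of them and secretes the products into urine.

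RefSeq promoters on GRCm38.p6 (250 bases before to 50 after each start) matched 54 of the 62 members. They were searched on both strands for the antioxidant response element core TGACNNNGC, which NRF2 binds in many Gst genes. It was present in 3 of 64 member promoters and in 12.39% of all 32851 promoters. The stretches shown are those upstream of the start, with the match in capitals, for the 2 members with this core that later prove lower in injured kidneys.
Gsta3: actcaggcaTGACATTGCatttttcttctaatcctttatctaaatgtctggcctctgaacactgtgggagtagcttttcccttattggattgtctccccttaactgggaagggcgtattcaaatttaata
Gstm5: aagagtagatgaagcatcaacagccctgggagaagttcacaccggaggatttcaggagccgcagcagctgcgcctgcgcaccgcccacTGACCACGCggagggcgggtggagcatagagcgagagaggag
The windows are chr1:21240455-21240584 (plus strand) for Gsta3 and chr3:107895724-107895853 (plus strand) for Gstm5. The first base of the match lies 121 and 42 bases before the start in that order. The other promoter with this core belongs to Gstm7. A match shows that the letters are present, not that a factor binds.

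In contralateral kidneys the Ugt genes held the highest levels. Per kilobase of transcript, the mean over 12 contralateral libraries was 831 ± 124 CPM per kb (SD, n = 12) for Ugt3a2, a glycosyltransferase that prefers sugars other than glucuronic acid, and 729 ± 130 for Ugt2b38, of the steroid- and drug-conjugating Ugt2b group. These neighbours in the order lay within 1 SD of each other. Ugt3a1 followed at 205 ± 38.3 and Ugt1a10 at 190 ± 76.6 CPM per kb. The highest sulfotransferase was Sult1d1, known for catecholamine and eicosanoid substrates, at 349 ± 77.4 CPM per kb, well above Sult1c2 at 63.2 ± 9.41, Sult1a1, the phenol sulfotransferase, at 7.54 ± 2.41 and Sult2a8, a liver bile acid sulfotransferase, at 4.36 ± 1.42. The Sult2a8 counts lay on a transcript of 358 bases, and the short length raises its level per kb. By mean CPM Sult1b1 and Sult5a1 were above it. The glutathione transferases were closer to each other, with Gstm1 at 151 ± 31.98, Gstp1 at 127 ± 34.2, Gstt2 at 106 ± 23.8 and Gstm5 at 97.7 ± 30.3 CPM per kb. Neighbours among these 4 overlapped within their SD.

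At 2 weeks after ischaemia most of the measured conjugating enzymes were lower in the injured than in the contralateral kidney. Averaged over the 3 arms, 31 of the 44 members tested were lower and 8 higher by edgeR's quasi-likelihood test at a Benjamini-Hochberg adjusted p under 0.05, which called 73.7% of all 17616 genes, 34.7% lower and 39.0% higher. The median log2 fold change was -0.87 over the members tested and 0.05 over all genes. The families did not move alike: 15 of 16 Ugt genes were lower and 0 higher (median -1.19), 12 of 18 Gst genes were lower and 3 higher (-0.78), and 4 of 10 Sult genes were lower and 5 higher (0.31). Summed over a family, Ugt transcripts stood at 5044 ± 722 CPM (SD, n = 12) in contralateral and 1760 ± 1066 in injured kidneys, Gst at 894 ± 188 and 486 ± 109, and Sult at 961 ± 187 and 438 ± 234. Without contralateral floxed vehicle library 2 the counts were 30 lower and 9 higher, and without both wild-type libraries numbered 3, which stand apart in their Ugt1a levels, 30 lower and 8 higher. By library totals without TMM factors 27 members were lower and 10 higher, with Gstm2 (0.65) and Gstm7 (0.45) then called higher, and a members' median of -0.53 against 0.42 over all genes, of which 10463 were then higher and 3377 lower.

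**Figure D1:**
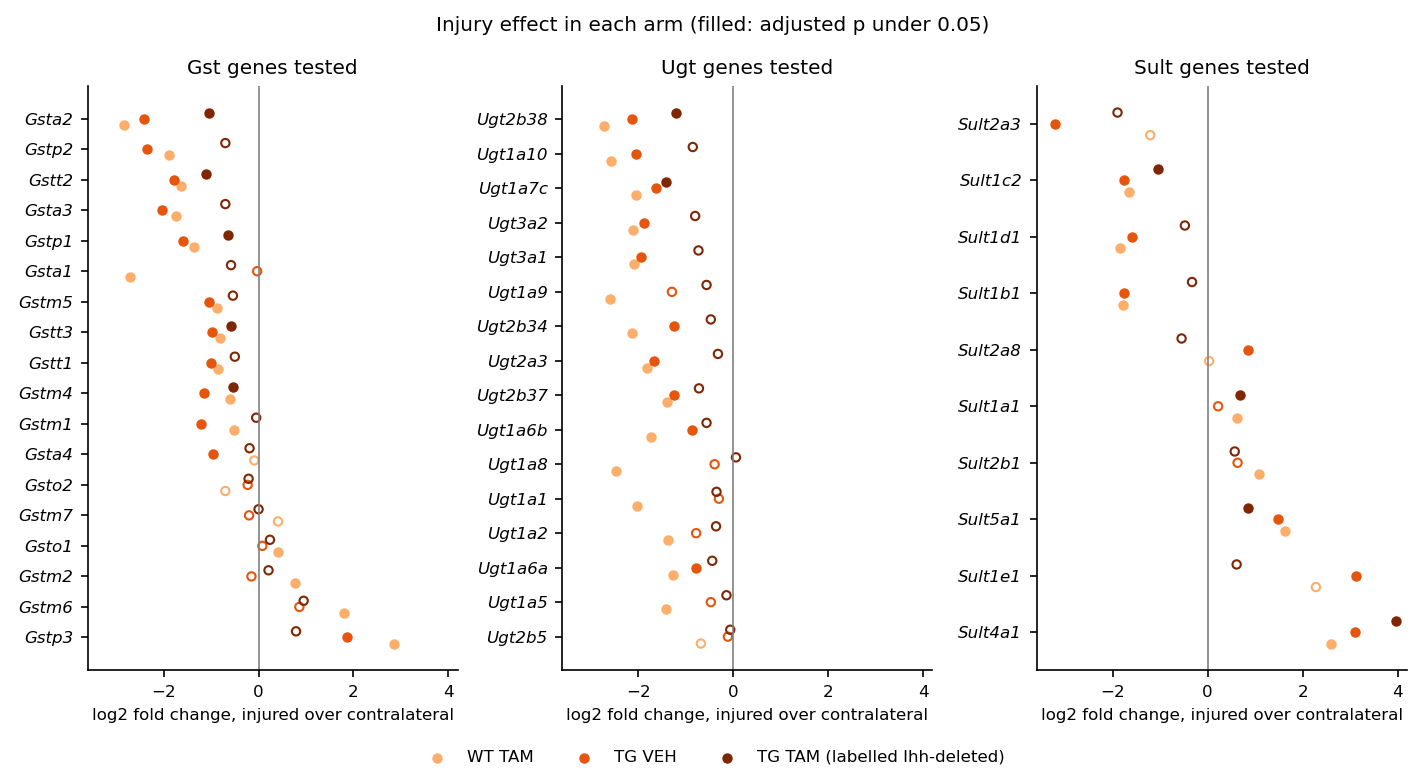
Log2 fold change of injured against contralateral kidneys (horizontal axis) for each of the 44 members tested, with a point for each arm, filled where the adjusted p was under 0.05. Most Ugt and Gst points lie left of 0, and those of the arm labelled Ihh-deleted mostly lie nearer to 0 than those of the intact arms.

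Markers of the proximal tubule and of other cell types moved with this result. All 11 markers of its S1 and S2 segments were lower on injury (median log2 fold change -1.72), as were all 9 markers of S3 (-1.60). The summed S1 and S2 markers ranged from 20797 to 30539 CPM in contralateral libraries and from 2801 to 20913 in injured libraries. Of the distal convoluted tubule markers 4 of 5 were lower (median -1.51) and of the thick ascending limb markers 4 of 6 were lower and 1 higher (-0.5). All 7 injured tubule markers (median 3.5), all 7 macrophage markers (2.27) and all 8 fibroblast and mural markers (1.94) were higher. Their part in the members' change was not tested, and in bulk kidney fewer cells of a type and less RNA per cell cannot be told apart.

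Ugt3a2 (chromosome 15, 9335550 to 9370955) showed the scale of the loss. Its level ranged from 1606 to 2679 CPM with a median of 1910 in the 12 contralateral libraries. In injured kidneys it was 235, 220, 566 and 696 CPM in the wild-type arm, 677, 457, 746 and 194 in the floxed vehicle arm, and 994, 1193, 1647 and 790 in the arm labelled Ihh-deleted. All intact injured libraries lay below every contralateral library, while library 3 of the arm labelled Ihh-deleted reached the contralateral range. The log2 fold change over the arms was -1.60 (SE 0.20, adjusted p = 1.27e-07). Ugt2b38 (chromosome 5, 87409942 to 87424203) ranged from 1062 to 1859 CPM in contralateral kidneys, and stood at 132, 100, 246 and 317 in injured wild-type, 398, 253, 469 and 120 in injured floxed vehicle, and 391, 751, 1053 and 312 in injured kidneys labelled Ihh-deleted. No injured library reached the contralateral range, and the log2 fold change was -2.03 (SE 0.22, adjusted p = 2.14e-08). Ugt3a1, the neighbour of Ugt3a2 on chromosome 15, fell by 1.59 on the log2 scale (SE 0.19, adjusted p = 7.89e-08), and the less abundant Ugt2b34, Ugt2a3 and Ugt2b37 fell by 1.28, 1.27 and 1.12. The exception among the Ugt genes was Ugt2b5 at -0.28 (0.07 by library totals), which did not pass the test on either scale. Ugt2b38 shares 44.1% of its 31-base words with Ugt2b5, so the estimated counts of this pair are less certain than those of Ugt3a2, which shares 19.4%, all of it with Ugt3a1.

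The Ugt1a locus on chromosome 1 makes 9 enzymes, among them Ugt1a1, the bilirubin transferase, from separate starts spliced to common last exons, and all 9 were lower on injury. The summed Ugt1a level ranged from 859.2 to 1369.4 CPM (median 1055.2) in contralateral and from 125.9 to 875.0 (median 375.6) in injured libraries. The fall was 1.82 for Ugt1a10 (SE 0.37, adjusted p = 9.74e-05), 1.70 for Ugt1a7c (SE 0.23, adjusted p = 4.63e-07) and 1.48 for Ugt1a9 (SE 0.44, adjusted p = 0.0038) on the log2 scale. Ugt1a1 fell by 0.89 (SE 0.21, adjusted p = 0.000479), and Ugt1a6b, Ugt1a8, Ugt1a2, Ugt1a6a and Ugt1a5 by 1.06, 0.93, 0.84, 0.83 and 0.68. By library totals Ugt1a5 and Ugt1a8 were no longer called on injury.

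How the locus was divided among its members differed between libraries. Ugt1a10 stood above Ugt1a7c in 23 of 29 kidney libraries and below it in 6, a feature singled out after the values were seen. In contralateral wild-type library 3 Ugt1a7c was at 715 CPM and Ugt1a10 at 20.3, a ratio of 35.2, and Ugt1a8 and Ugt1a9 were at 0.137 and 0.366. Injured wild-type library 3 had Ugt1a7c at 194 and Ugt1a10 at 13.4 CPM, a ratio of 14.4. The other 4 libraries had ratios from 1.89 to 2.36. They were injured wild-type libraries 1 and 2, contralateral wild-type library 2 and contralateral library 4 of the arm labelled Ihh-deleted. The 23, among them all floxed vehicle, uninjured and nephrectomy libraries, had ratios from 0.325 to 0.839. The split was thus found mostly in the wild-type arm. The summed level of contralateral wild-type library 3, 859.2 CPM, was the lowest of the contralateral libraries. Ugt1a genes share between 43.0% (Ugt1a7c) and 97.8% (Ugt1a6a) of their 31-base words with other genes, and all 9 but the longest transcript of Ugt1a6a share the last exon from position 88218127, so single Ugt1a levels are uncertain. Without both wild-type libraries numbered 3, a setting added after seeing the data, the wild-type fall on injury was -2.64 for Ugt1a10 (-2.57 with them) and -2.63 for Ugt1a9 (-2.60 with them).

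**Figure D2:**
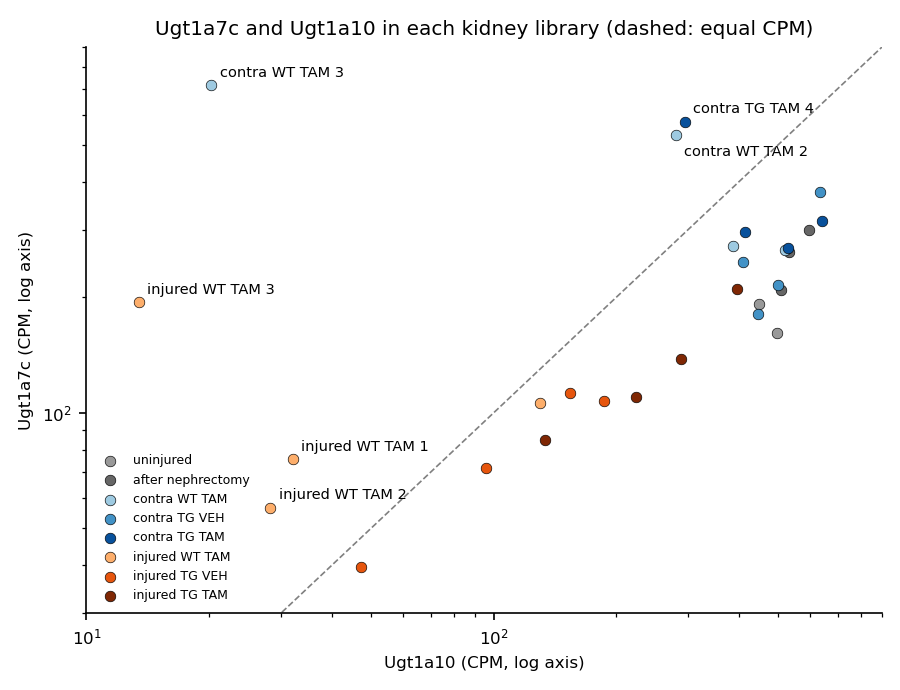
CPM of Ugt1a10 (horizontal, log axis) against CPM of Ugt1a7c (vertical, log axis) in the 29 kidney libraries, with equal levels as a dashed line. The 2 wild-type libraries numbered 3 lie far above the line at low Ugt1a10, and 23 libraries lie below it.

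Among the glutathione transferases the alpha, pi and theta classes were lower with few exceptions. Gsta2 (chromosome 9, 78331018 to 78355788), an alpha-class enzyme that reduces lipid peroxides, ranged from 41.8 to 122 CPM (median 56.7) in contralateral libraries. In injured libraries it was 10.0, 7.86, 17.9 and 10.2 in the wild-type arm, 19.7, 12.7, 20.5 and 6.13 in the floxed vehicle arm and 26.6, 27.8, 38.05 and 15.3 in the arm labelled Ihh-deleted. All injured libraries lay below all contralateral libraries, at a log2 fold change of -2.09 (SE 0.23, adjusted p = 2.02e-08). Uninjured library 2, the shallow library, had 15.9 CPM and uninjured library 3 had 39.6, so the uninjured kidneys lay below the contralateral range. Gsta2 shares 52.3% of its 31-base words with Gsta1, which fell by 1.10 (SE 0.46, adjusted p = 0.0329) but was not called by library totals (-0.75, adjusted p = 0.128).

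Gstt2, a theta-class enzyme with no 31-base word shared with another gene, ranged from 102 to 220 CPM (median 137) in contralateral kidneys. It was 25.7, 30.97, 59.6 and 52.1 CPM in injured wild-type, 51.4, 35.5, 58.4 and 29.6 in injured floxed vehicle and 69.6, 58.1, 106 and 51.1 in injured kidneys labelled Ihh-deleted, where library 3 overlapped the contralateral range. Its log2 fold change was -1.51 (SE 0.15, adjusted p = 7.79e-09). Gsta3 fell by 1.5, Gstp1, the pi-class enzyme, by 1.2, and Gstm5 by 0.82 on the log2 scale. Gstp2 fell by 1.65, but 69.6% of its 31-base words are shared with Gstp1, and Gstt1 fell by 0.79. Gstm1, the most abundant mu-class enzyme per kilobase, changed less, at -0.59 (SE 0.10, adjusted p = 1.44e-05), with 138 to 291 CPM in contralateral and 66.9 to 188 in injured libraries, ranges that overlap. Gstt3 and Gstm4 fell by 0.80 and 0.76, and as for Gsta2 and Ugt2b38 all 12 injured libraries lay below all contralateral libraries. These 4 members were the ones with such a separation, which 6.39% of all genes showed. Gsta4 was called lower at -0.41 (adjusted p = 0.00927) and was not called by library totals (-0.04). Gstm2 at 0.28, Gstm7 at 0.07 and Gsto2 at -0.38 did not pass the test.

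Sult1d1 (chromosome 5, 87554645 to 87569027) and Sult1c2 carried the decline of the sulfotransferases. Sult1d1 ranged from 607 to 1141 CPM (median 791) in contralateral kidneys. It stood at 140, 118, 267 and 295 CPM in injured wild-type, 335, 296, 386 and 149 in injured floxed vehicle and 616, 717, 779 and 340 in injured kidneys labelled Ihh-deleted. Of that arm 3 libraries lay within the contralateral range and none of the 8 intact libraries did. The log2 fold change was -1.31 (SE 0.17, adjusted p = 3.19e-07). Sult1c2 ranged from 91.5 to 155 CPM in contralateral and from 16.3 to 93.3 in injured libraries and fell by 1.49 (SE 0.17, adjusted p = 5.31e-08). Sult1b1, a thyroid hormone sulfotransferase, fell by 1.30 (SE 0.21, adjusted p = 7.53e-06). Sult2a3 fell by 2.11 (SE 0.46, adjusted p = 0.000248) from a contralateral median of 0.564 CPM, a level near the limit of detection.

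A small group of members was higher in injured kidneys. Sult5a1 (chromosome 8, 123140192 to 123158315), a sulfotransferase without a well-known substrate, ranged from 1.33 to 2.64 CPM in contralateral libraries. It was 7.82, 7.21, 4.78 and 7.21 CPM in injured wild-type, 5.48, 6.18, 3.43 and 7.80 in injured floxed vehicle and 4.29, 4.10, 3.16 and 3.31 in injured kidneys labelled Ihh-deleted. All injured libraries lay above all contralateral libraries, and the log2 fold change was 1.32 (SE 0.16, adjusted p = 1.15e-07). Sult4a1, known mainly from brain, did not exceed 0.381 CPM in contralateral libraries and reached 1.02 to 3.50 in injured libraries, with a log2 fold change of 3.22 (SE 0.30, adjusted p = 3.8e-09). These 2 members were the ones with all injured libraries above all contralateral libraries, which 5.34% of all genes showed. Sult1e1, the estrogen sulfotransferase, at 2.01, Gstp3 at 1.84 and Gstm6 at 1.2 were also called higher, as were Sult2b1, a cholesterol sulfotransferase, at 0.76, Sult1a1 at 0.51 and Gsto1 at 0.24, but Sult1e1 and Gstp3 had contralateral medians of 0.07 and 0.112 CPM.

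**Figure D3:**
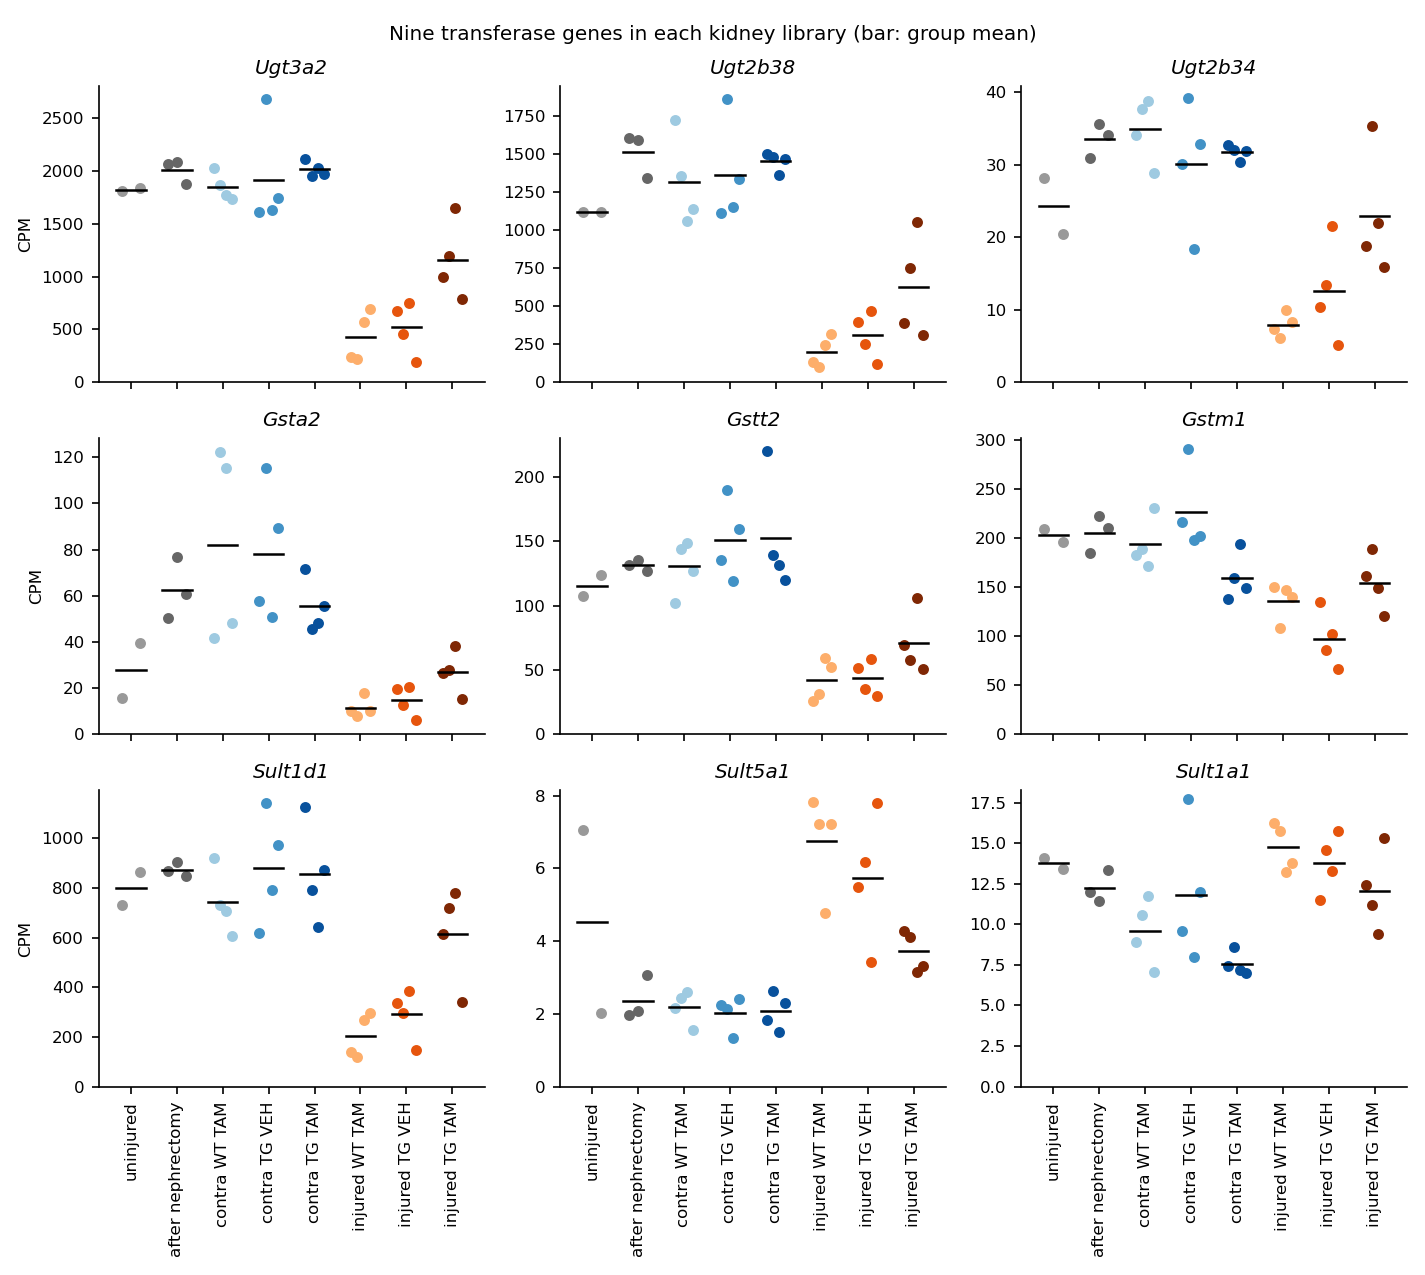
CPM (vertical axis) of 9 members in the 8 groups, with a point for each library and a bar at the group mean. Gsta2 and Ugt2b38 are lower in all injured than in all contralateral libraries, and Sult5a1 is higher in all. Ugt3a2, Ugt2b34, Gstt2 and Sult1d1 have lower means in the injured groups, but libraries overlap, as they do for Gstm1 and Sult1a1.

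The arms differed in how many members passed the test. In the wild-type arm 29 members were lower and 8 higher (of all genes 60.7% called, 28.7% lower and 32.1% higher, members' median -1.37), in the floxed vehicle arm 25 lower and 5 higher (63.7% called, 31% lower and 32.7% higher, median -1.0), and in the arm labelled Ihh-deleted 8 lower and 3 higher (33.8% called, 14.5% lower and 19.3% higher, median -0.48). By library totals the counts were 27 lower and 10 higher in the wild-type arm, 21 lower and 9 higher in the floxed vehicle arm, and 6 lower and 5 higher in the arm labelled Ihh-deleted, where the members' median was -0.3 and 4976 of all genes were higher and 1370 lower. On the TMM scale the 8 members lower in every arm were Gsta2, Gstm4, Gstp1, Gstt2, Gstt3, Sult1c2, Ugt1a7c and Ugt2b38, and Sult4a1 and Sult5a1 were higher in every arm. The sign of the log2 fold change was negative in all 3 arms for 32 members and positive in all 3 for 8. Without contralateral floxed vehicle library 2 its arm had 27 lower and 6 higher, and without both libraries numbered 3 the wild-type arm had 29 lower and 6 higher. In the arm labelled Ihh-deleted the count of 11 fell to 7, 6 or 5 without contralateral library 1, injured library 1 or injured library 4. The shares of all genes called in the fits without a library are not given.

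Injured kidneys labelled Ihh-deleted had more of these transcripts than injured kidneys of the intact arms. In this direct comparison 21 members were higher and 1 lower (of all genes 37.1% called, 20.5% higher and 16.6% lower, members' median 0.58 against -0.01), with 13 of 16 Ugt, 6 of 18 Gst and 2 of 10 Sult genes higher. The summed Ugt level was 2819 ± 1040 CPM (SD, n = 4) in injured kidneys labelled Ihh-deleted, 1416 ± 670 in the floxed vehicle arm and 1044 ± 545 in the wild-type arm. Without injured library 3 of the arm labelled Ihh-deleted 14 members were called in place of 22, with the share of all genes in that fit not given. By library totals 17 members were higher and 5 lower, and of all genes 1804 were then higher and 5465 lower, with a median of -0.25 (3611 higher and 2928 lower on the TMM scale). Gstm2 (-0.66), Gstm6 (-1.02), Gsto1 (-0.57) and Sult1a1 (-0.47) then joined Sult5a1 among the lower members.

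The Ugt genes led this difference. Ugt3a2, at 790 to 1647 CPM against 194 to 746 in the intact arms, did not overlap between them, with a log2 difference of 1.29 (SE 0.28, adjusted p = 0.00153). Sult1b1 did not overlap either, with 2.41, 3.09, 2.27 and 1.52 CPM against 0.553, 0.740, 1.06 and 1.12 in the wild-type and 0.659, 1.36, 0.924 and 0.417 in the floxed vehicle arm, and a log2 difference of 1.43 (SE 0.31, adjusted p = 0.00148). Such a separation upward was seen in 5.59% of all genes, and downward in 3.65% of all genes and in 0 members. Sult1d1 was higher by 1.33 (SE 0.25, adjusted p = 0.000579), Ugt2b38 by 1.34 (SE 0.31, adjusted p = 0.00236), Ugt3a1 by 1.21 (SE 0.27, adjusted p = 0.0018) and Ugt2b34 by 1.2 (SE 0.24, adjusted p = 0.000999). Of the Ugt1a genes, Ugt1a8 was higher by 2.03, Ugt1a10 by 1.73 and Ugt1a1 by 1.39, and Ugt1a9 was higher by 1.72 (adjusted p = 0.0325) but not by library totals (1.49, adjusted p = 0.0538). Between the intact arms, wild-type minus floxed vehicle was -2.63 for Ugt1a8, -1.91 for Ugt1a9, -1.25 for Ugt1a10 and -1.58 for Ugt1a1. Of these Ugt1a1 alone was called. Ugt1a8 was at 20.9 to 37.8 CPM in the labelled, 5.84 to 33.96 in the floxed vehicle and 0.494 to 8.25 in the wild-type arm. Without both wild-type libraries numbered 3 the differences from the intact arms were 1.85 for Ugt1a8, 1.57 for Ugt1a10 and 1.52 for Ugt1a9. Gsta2 was higher by 1.05 (SE 0.32, adjusted p = 0.0141). Sult5a1 was lower by 0.74 (log2 difference -0.74, SE 0.24, adjusted p = 0.0199). Here too the markers moved: all 11 S1 and S2 markers and all 9 S3 markers were higher (medians 1.05 and 1.73), and all 7 macrophage and all 8 fibroblast and mural markers were lower (-1.48 and -1.23). Of the thick ascending limb markers 5 of 6 were higher (0.61), and of the distal convoluted tubule markers 4 of 5 were higher and 1 lower (0.92). Of the 7 injured tubule markers 2 were lower and 0 higher (-0.72), and all 5 podocyte markers were lower (-0.72). The summed S3 markers were 7460 to 16258 CPM in injured kidneys labelled Ihh-deleted and 1427 to 6112 in the intact arms, and their part in the members' difference was not tested.

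The difference between the arms' injury effects was also tested directly, as the effect in the arm labelled Ihh-deleted minus the mean effect of the intact arms. It was positive for 9 members and negative for 0 at the threshold (of all genes 16.1% called, 10.4% positive and 5.74% negative, members' median 0.63 against 0.0). These were Gsta2 at 1.58 (SE 0.47, adjusted p = 0.028), Sult1b1 at 1.45, Ugt3a1 at 1.28, Sult1d1 at 1.24, Ugt2b34 at 1.23, Gsta3 and Ugt3a2 at 1.2, Gstp1 at 0.84 and Gstm1 at 0.81 (SE 0.22, adjusted p = 0.0173), the other adjusted p-values lying between 0.0245 and 0.0487. This count was not stable to the libraries: it was 1 without contralateral library 4 of the arm labelled Ihh-deleted, whose Ihh level goes against its label, and 3, 2, 0 and 1 without contralateral libraries 2 and 3 and injured libraries 2 and 3 of that arm. It was 7 without contralateral floxed vehicle library 2 and 5 by library totals, where Gsta3 (0.91, adjusted p = 0.0733), Ugt3a2 (0.93, adjusted p = 0.0712), Gstp1 (0.55, adjusted p = 0.0588) and Sult1b1 (1.16, adjusted p = 0.0506) were no longer called and, of all genes, 824 were positive and 2477 negative (1825 and 1011 on the TMM scale). For the fits without a library the share of all genes called is not given. Their changes are not read as particular to the members.

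The intact arms were also compared with each other after injury, since they differ in genotype and in tamoxifen. There 1 member was called, Ugt1a1, lower in wild-type by 1.58 on the log2 scale (log2 difference -1.58, SE 0.37, adjusted p = 0.0218), where 2.22% of all genes were called and 1.69% were lower. It was 2.36, 0.869, 2.20 and 3.85 CPM in injured wild-type and 7.004, 6.65, 10.9 and 3.13 in injured floxed vehicle kidneys, ranges that overlap through floxed vehicle library 4. Without the wild-type libraries numbered 3 Ugt1a1 was at -1.56 (adjusted p = 0.0697) and Ugt1a8 was called instead at -2.28 (adjusted p = 0.0411). Leaving out single libraries gave 0 to 5 members, and at an unadjusted p under 0.05 there were 12. The share of all genes is not given for these counts, so they are not set against it.

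In kidneys without ischaemia 0 members were called by edgeR's quasi-likelihood test or by DESeq2. This held for contralateral kidneys labelled Ihh-deleted against intact ones (0.00568% of all genes called, 4 members at an unadjusted p under 0.05), contralateral wild-type against uninjured kidneys (0.153%, 6 members), nephrectomy against uninjured kidneys (0.176%, 2 members) and nephrectomy against contralateral wild-type kidneys (2.54%, 1 member). These percentages are for the adjusted p, and the share of all genes at the unadjusted p is not given. Ugt3a2 was at 1808 and 1835 CPM in the uninjured and at 2068, 2086 and 1877 in the nephrectomy libraries. With 2 uninjured libraries, 1 of them shallow, small differences could not be detected. Sult5a1 stood at 7.05 CPM in the shallow uninjured library and at 2.02 in the other.

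The genes around the members in the same pathways were counted from lists fixed by function. Of 12 genes of glutathione synthesis and recycling, 11 were lower and 1 higher on injury (median log2 fold change -1.13), with Gpx3, the secreted glutathione peroxidase made by the tubule, at -1.76, and Slc7a11, the cystine carrier, at 0.53. Of 9 tested genes of the mercapturate pathway, which trims glutathione conjugates, 8 were lower and 1 higher (median -1.53), with Acy3 at -1.89, Acy1 at -1.80 and Ggt1, the brush border gamma-glutamyltransferase, at -1.63. Of 6 genes of UDP-glucuronate supply and glucuronide removal 5 were lower (median -0.85), among them Ugdh, which makes UDP-glucuronate, at -0.81. Of 11 genes of sulfate and PAPS supply and sulfatases 8 were lower and 3 higher (median -0.82), with Papss2, a PAPS synthase, at -1.45. The share of genes called lower was 34.7% over all genes tested.

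Of 11 exporters and organic anion carriers 7 were lower and 1 higher (median -0.97): Slc22a8, the basolateral organic anion transporter OAT3, was at -2.12 and Abcc3, an efflux pump for glucuronides, at 2.46. Of 10 other glutathione transferases and microsomal enzymes 4 were lower and 3 higher (median -0.01), with Gstk1 at -1.45 and Hpgds, a prostaglandin D synthase of the sigma class, at 2.44. Of 9 NRF2 targets outside the families 8 were lower and 1 higher (median -0.62), with Nqo1 at -1.37, while the NRF2 gene Nfe2l2 was at 0.53. Gclc, Gclm, Gsr, Slc7a11 and Txnrd1 are both in this list and in that of glutathione synthesis and recycling. The counts of these lists, here and below, are therefore not separate. Of 13 regulators 9 were lower and 4 higher (median -0.99), among them Hnf4a at -1.43. In injured kidneys labelled Ihh-deleted against intact ones, 10 of 12 glutathione genes, 7 of 9 mercapturate genes (1 was lower) and 8 of 9 NRF2 targets were higher, where 20.5% of all genes were higher. Of the exporters and carriers 7 of 11 were higher and 1 lower, of the UDP-glucuronate genes 4 of 6 higher, of the sulfate and PAPS genes 4 of 11 higher and 2 lower, of the other glutathione transferases 3 of 10 higher and 1 lower, and of the regulators 6 of 13 higher and 1 lower, with Hnf4a at 1.21.

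Single cells showed where many of the members are expressed. Of the Ugt1a genes only Ugt1a6a and Ugt1a7c had rows. They had 7 and 12 UMIs in the injured and 4 and 17 in the uninjured library, so the shares below say little of this locus. The libraries held 3063 barcodes (injured) and 1313 (uninjured), with median UMI counts of 2014 and 2391, and 8 barcode sequences occurred in both. Of 22 clusters 20 were named from markers, and doublets were not removed. There was 1 library per condition, so values carry intervals for counting error only and no test was made. Proximal tubule-like cells were 29.51% of injured and 79.74% of uninjured barcodes, and gave 75.04% of all member UMIs in the injured library (12731 of 16965, exact binomial 95% interval 74.38 to 75.69) and 92.94% in the uninjured library (15905 of 17114, interval 92.54 to 93.32).

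Levels in a cell class are UMI CPM, the gene's share of the summed UMIs of the class on the CPM scale. In the injured library Sult1d1 was at 1407.7 UMI CPM in proximal tubule-like cells, Ugt2b38 at 1136.4 and Ugt3a2 at 326.0. In B cell-like cells, which should lack them, they were at 33.2, 53.7 and 11.1, a background level, with median depths of 2029 UMIs in proximal tubule-like and 1603.5 in B cell-like cells. At least 1 Ugt2b38 UMI was found in 79.31% of the proximal tubule-like cells and in 5.03% of the B cell-like cells. The uninjured library held 3 B cell-like barcodes, too few for such a background.

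Some members were highest outside the proximal tubule. Gstm1 was highest in thin limb-like cells, with 961.3 UMI CPM in the injured and 2589.8 in the uninjured library, a cluster also led by the injury gene Lcn2. Gstm2 was highest in principal cell-like cells of the collecting duct at 293.6 and 470.5, with 0 of 187 UMIs in proximal tubule-like cells of the injured library. Gstt1 was highest in the same cells at 387.9 and 481.7, and Sult1a1 in endothelial-like cells at 88.9 and 168.8. Every UMI of Sult2a3 was in intercalated cell-like cells, 24 of 24 in the injured (74.9 UMI CPM, 95% interval 48.0 to 111.4) and 29 of 29 in the uninjured library (218.5, interval 146.3 to 313.8). Sult5a1, which was higher in injured bulk kidneys, had 14 of its 20 UMIs in intercalated cell-like cells and 0 in proximal tubule-like cells of the injured library, where a count of 0 allows up to 1.6 UMI CPM by the exact interval, and it had no row in the uninjured table.

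**Figure D4:**
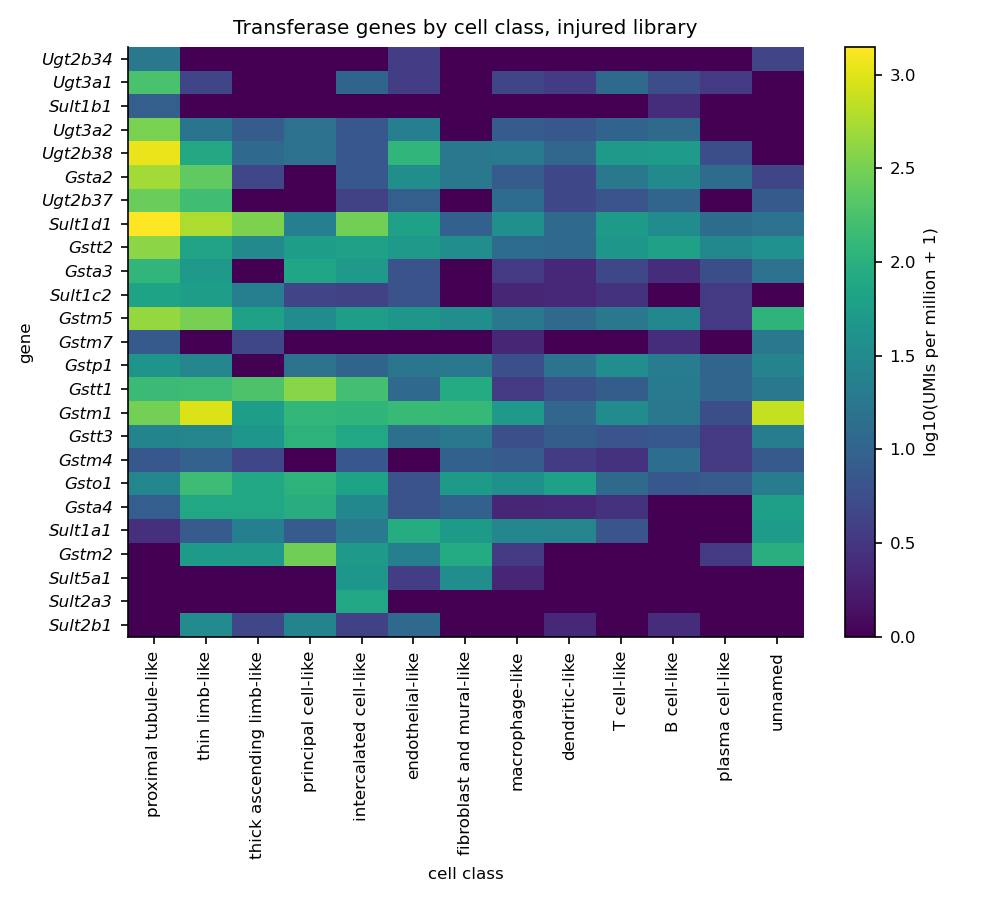
Heat map of log10(UMI CPM + 1) in the injured single-cell library for 25 members (rows) by cell class (columns), with shading by the scale bar. Ugt2b38, Sult1d1 and Gsta2 are highest in proximal tubule-like cells, Gstm2 in principal cell-like cells and Sult2a3 in intercalated cell-like cells.

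The place of a member and its change in bulk were set side by side for 25 members with at least 20 UMIs in the injured library. Of 14 with at least 50% of their UMIs in proximal tubule-like cells 13 had a negative log2 fold change on injury (median -1.40, range -2.09 to 0.07), and of 11 with less 6 did (median -0.41, range -2.11 to 1.32). Pearson's r across these members was -0.71, a description over genes that share the same libraries and cells. The medians of the difference between injured kidneys labelled Ihh-deleted and intact ones were 0.94 and 0.07. The 6 negative members with less than 50% were Sult2a3 at -2.11, Gstt3 at -0.80, Gstt1 at -0.79, Gstm4 at -0.76, Gstm1 at -0.59 and Gsta4 at -0.41. The division at 50% is that of the injured library. In the uninjured library the proximal share was 67.59% for Gstt3, 78.54% for Gstt1, 86.36% for Gstm4 (22 UMIs) and 62.36% for Gstm1. There it was 35.48% for Gsta4 and 0% for Sult2a3. Gsto1, higher in injured bulk kidneys, had 19.2% in the injured and 66.02% in the uninjured library.

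**Figure D5:**
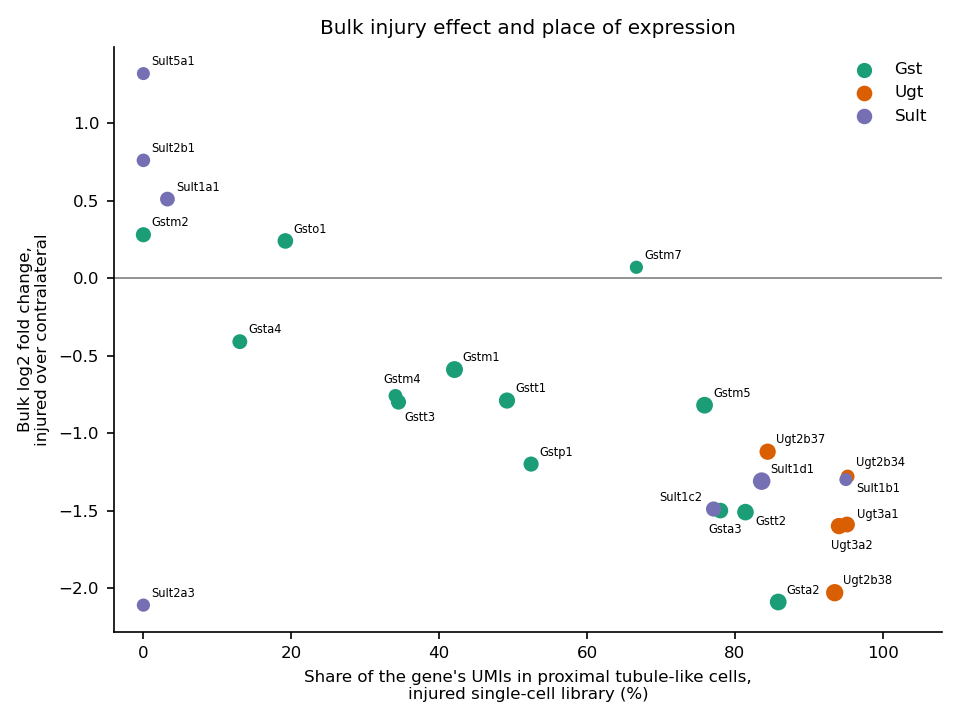
Share of a member's UMIs found in proximal tubule-like cells of the injured single-cell library (horizontal, %) against its bulk log2 fold change on injury (vertical) for 25 members. Most members at the right, such as Ugt2b38 and Ugt3a2, lie below 0, and Sult5a1 at 0% lies highest.

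Within proximal tubule-like cells the levels of the injured and uninjured library were set side by side. Of genes with at least 100 UMIs over both libraries, 16 members had a median log2 ratio of injured to uninjured of 0.23, against 0.10 over all 4573 genes. Ugt3a2 was at 326.0 and 340.3 UMI CPM (log2 ratio -0.06, counting interval -0.20 to 0.07), Sult1d1 at 1407.7 and 1174.3 (0.26, 0.19 to 0.33), and Gsta2 at 508.7 and 389.7 (0.38, 0.27 to 0.50). Ugt2b38 was lower in the injured library at -0.23 (-0.30 to -0.16), while Gstm1 at 0.65 (0.50 to 0.81) and Ugt2b37 at 1.29 (1.10 to 1.48) were higher. In bulk Ugt2b37 fell by 1.12 against contralateral kidneys, which is another reference than the uninjured kidney used here. It was at 61.7 and 84.7 CPM in uninjured, 194 to 236 in contralateral wild-type and 38.7 to 153 in injured wild-type bulk libraries. The single-cell ratios are of 2 libraries, and these kidneys were of C57/BL6 mice. The cells that survive dissociation and sorting were counted, so the bulk and single-cell values are not the same population. Median mitochondrial shares in these cells were 21.3% and 25.1%.

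The proximal tubule-like cells fell into 5 clusters, 2 of them with the S1 gene Slc5a2 and 2 with the S3 gene Slc7a13. Gsta2 was highest in a Slc5a2 cluster, at 899.2 UMI CPM in the injured and 850.9 in the uninjured library. In the Slc7a13 clusters it was at 282.1 and 221.7 in the injured and at 61.7 and 77.4 in the uninjured library. Ugt2b37 was higher in the injured library in all 5 clusters, with 552.1 against 265.5 in a Slc7a13 cluster and 108.1 against 16.3 in a Slc5a2 cluster. Ugt3a2 was nearly level, with 403.6 against 445.0 and 219.8 against 203.7 in the same clusters. The clusters were formed from these cells, so this is a description.

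The 5 genes most like Ugt3a2 over the 29 kidney libraries, by Pearson's r of log2(CPM + 1), were Chpt1 at 0.997, Ggt1 at 0.996, Tkfc and Slc22a2 at 0.995 and Aldh8a1 at 0.994. Of the members, Ugt3a1 was at 0.986, Ugt2b38 at 0.983, Sult1d1 at 0.973 and Gstt2 at 0.946, and Sult5a1 was at -0.823. These correlations share the contrast between injured and other kidneys and are given as a description.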

How the data were processed

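Bulk RNA was measured in 8 kidney samples of 4 columns each and single cells in 2 samples. The bulk table deposited by the authors holds expected counts per transcript, estimated with Salmon 1.4 on GRCm38 or mm10 per the submitters' processing notes. Of its positive values 83.2% were not whole, and kidney libraries held 0.593 M to 37.98 M counts, which limits low members in the shallow one. The single-cell tables deposited by the authors hold UMI counts per gene and barcode. Per the labels' protocols live cells were sorted by DAPI and made into 10x 3' v2 libraries, and the submitters' processing notes name Cell Ranger and STAR. For the upstream annotation and options, the sources used here give nothing.

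Transcript IDs were matched to GENCODE M21 (105281 of 105833), and the 552 unmatched (0.185% of counts) were left out. Counts were summed per gene and rounded. The 29 kidney-profile columns of all 8 groups entered 1 fit in edgeR 4.0.16 (R 4.3.3) with filterByExpr, TMM factors, glmQLFit and the quasi-likelihood F test, which shares the estimate of spread over groups, and p-values were adjusted by Benjamini-Hochberg over all 17616 genes. CPM is the count relative to the library total times the TMM factor, on the usual scale, and per-kilobase levels use the count-weighted length of the annotated transcripts. On simulated counts of 16919 genes for injury over the 3 arms, with 200 genes changed, 100% of changes of log2 1 and of log2 1.5 were recovered. Of the calls 4.76% were false. The simulation gave every gene the same spread and changed only well-counted genes. It therefore does not show the recovery or false calls for low or more variable members, or where most genes change. Cells were clustered with scanpy 1.11.5 and named from fixed markers. Shared sequence is the share of a main transcript's 31-base words found in other genes. Figures were drawn with matplotlib 3.10.9.

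Members and lists were chosen with earlier results of these data known. Named with values were the 4 members per family with the highest contralateral CPM per kb, up to 6 called members per direction and comparison by size of change, with a mean log2 CPM no lower than 1, and up to 4 genes per companion list. The Ugt1a split, and some members named by value outside this rule, were chosen after their values were seen. Alternatives were RLE factors, DESeq2 1.42.0, no filter, all 32 columns, a block by column number, each library left out, and, added after seeing the data, library totals without TMM factors and both wild-type libraries numbered 3 left out.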

Additional observations from a re-analysis of the deposited data

Results flagged for a closer look

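Of 144 groups of 4 libraries examined for 24 named members, 8 held a library far from the others, and chance alone flags about 1 in 20 groups. These were Gstm2 in injured wild-type library 3 (65.68 CPM), Gsto1 in contralateral library 1 of the arm labelled Ihh-deleted (25.7 CPM), Sult1c2 in injured library 3 of that arm (93.29 CPM), Sult2a8 in contralateral floxed vehicle library 2 (0.2853 CPM), Ugt1a10 and Ugt1a8 in injured wild-type library 4 (130.3 and 8.252 CPM), Ugt1a7c in contralateral library 4 of the arm labelled Ihh-deleted (575.2 CPM) and Ugt3a2 in contralateral floxed vehicle library 2 (2679.0 CPM). Contralateral floxed vehicle library 2 is also the library with low Lrp2, and contralateral library 4 of the arm labelled Ihh-deleted the library whose Ihh level goes against its label.

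For 9 of 44 members (20.5%) the injury effect differed between the arm labelled Ihh-deleted and the intact arms by the test of the difference itself. Of all genes 16.1% were called by this test, 10.4% positive and 5.74% negative. The members' log2 differences were 1.58 for Gsta2, 1.2 for Gsta3, 0.81 for Gstm1, 0.84 for Gstp1, 1.45 for Sult1b1, 1.24 for Sult1d1, 1.23 for Ugt2b34, 1.28 for Ugt3a1 and 1.2 for Ugt3a2. All of these effects are less negative in the arm labelled Ihh-deleted, and proximal tubule markers differed in the same direction, with a median of 1.71 for the 9 S3 markers (9 passed that test) and 1.01 for the 11 S1 and S2 markers (0 passed). Whether the segments differ was not tested, nor was the markers' part in the members' difference. The count of 9 members was 1 without contralateral library 4 of the arm labelled Ihh-deleted, 3, 2, 0 and 1 without contralateral libraries 2 and 3 and injured libraries 2 and 3 of that arm, and 5 by library totals.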

How the results depend on the processing

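No called value of a named member reversed direction in the settings run. The balance of calls over all genes did turn: for injured kidneys labelled Ihh-deleted against intact ones 55.2% of calls were higher, 24.8% by library totals and 47.8% with RLE factors, and for the difference between arms 64.4% were positive, 25% by library totals and 54.3% with RLE factors. By library totals it also turned in the contralateral and nephrectomy comparisons, in which no member was called. With all 32 columns, heart-profile columns included, the number of members called was 25 (6 higher, 19 lower) on injury over the 3 arms, 15 in the wild-type, 14 in the floxed vehicle and 2 in the arm labelled Ihh-deleted, 0 for the difference between arms, 1 for injured kidneys labelled Ihh-deleted against intact ones, 0 for wild-type against floxed vehicle and 9 for contralateral wild-type against uninjured kidneys. By library totals without TMM factors, added after seeing the data, 5 members were called for the difference between arms. DESeq2 called 2 for wild-type against floxed vehicle. With at most 25% mitochondrial UMIs per barcode the proximal tubule-like share of member UMIs was 71.93% (injured) and 90.63% (uninjured). Leaving out each library gave 37 to 41 members on injury, 34 to 40, 27 to 33 and 5 to 15 in the wild-type, floxed vehicle and labelled Ihh-deleted arms, 0 to 13 for the difference, 14 to 27 for injured kidneys labelled Ihh-deleted against intact ones (14 without injured library 3 of the labelled arm), 0 to 5 for wild-type against floxed vehicle, and 0 to 0 for the other 4 comparisons. For wild-type against floxed vehicle the count was 2 without injured floxed vehicle library 1, 0 without library 3 and 5 without library 4 of that arm, and 0 without injured wild-type library 1, 2 or 3 and 5 without library 4. For the fits with all 32 columns or without a library the shares of all genes called are not given. These changes are therefore not read as particular to the members. Their cause was not tested.

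Pairing of kidneys by column number was not found in every pair: the correlation of same-numbered columns ran from -0.206 to 0.197, and the own number was the best match in 5 of 12. With the replicate block by column number 3 members were called for the difference between arms (9 without it). The planned fit without called doublets was not run, since the caller marked 0.18% of barcodes. Depth limits members below about 1 CPM, above all in the uninjured library of 0.593 M counts.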
